A study of Mus musculus with 2 samples.

Results

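Classical monocytes were picked from single-cell RNA libraries of lung immune cells by the genes each cell carried. A barcode was kept if it had 200 or more genes and no more than 10% of its UMIs in mitochondrial genes, which left 6621 cells. A UMI, or unique molecular identifier, stands for 1 captured RNA molecule. A kept cell was taken as a classical monocyte when it had a UMI in at least 4 of 7 genes of these cells, Ly6c2, Plac8, F13a1, Ifitm6, Hp, Thbs1 and Ccr2. It also had to have a UMI in fewer than 3 of 6 genes of non-classical monocytes (Ace, Adgre4, Treml4, Cd300e, Eno3 and Cd300ld), fewer than 10 UMIs of the macrophage genes C1qa, C1qb, C1qc and Ms4a7 summed, and less than 2% of its UMIs in the neutrophil genes S100a8 and S100a9. The rule took 249 of the 6621 cells, 136 of 3540 in the distal library and 113 of 3081 in the niche library.

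Both libraries came from lungs of female Balb/c mice, taken 7 days after Labelling-4T1 cells had been given into a vein. The 4T1 line is a mammary carcinoma of the mouse and spreads to the lung, and every mouse in both groups carried these cells, so there was no tumour-free group. The distal library held immune cells of distal lung and the niche library immune cells of the metastatic niche, both sorted by fluorescence from dissociated tissue and made with 10x Genomics 3′ reagents, which put single cells in droplets. The sources used here do not give the sort gates, the number or age of the mice, or whether tissue was pooled. Each group was 1 library, so no test between groups could be made, and every difference below is one between these 2 libraries. Intervals are 95% intervals and cover counting error only.

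Classical monocytes leave the bone marrow through the chemokine receptor CCR2 and carry the surface protein Ly6C in mice. They circulate briefly, enter inflamed or injured tissue and tumours, and there can become macrophages or antigen-presenting cells that hold MHC class II on the surface. In the lung metastasis field they are known as the cells that 4T1 and other carcinomas draw to sites of seeding.

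Members of the distal library had 1503 to 18884 UMIs (median 5010.5) and those of the niche library 781 to 20823 (median 8539), or 801012 and 1014751 UMIs in all. The libraries as a whole differed in the same direction, with medians of 5794.5 and 11197 UMIs per kept cell. They had also been counted with different software versions and gene lists, so only genes in both were compared. Some genes differed strongly between the libraries in unrelated cells too. Genes were called library-shifted where their exons overlap a gene counted in 1 library only, or where their median log2 difference over B cells, T cells, endothelial cells and neutrophils was at least 1 in size with the sign seen in members. Such genes are named as library-shifted below, and whether counting, free RNA or the cells themselves moved them cannot be told apart. The libraries shared 4 barcodes, none of them among members.

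The results below turn mostly on MHC class II genes and interferon-stimulated genes, so the promoters of a few of them are shown first. They are the 250 bases before the gene start, written in the direction of the gene, from RefSeq on GRCm38.p6, which is the C57BL/6J reference and not the Balb/c sequence of these mice. Capitals mark the Y box letters CTGATTGG, known from MHC class II promoters, in H2-Aa (chr17:34287824-34288073, minus strand) and H2-Eb1 (chr17:34305617-34305866, plus strand).
H2-Aa: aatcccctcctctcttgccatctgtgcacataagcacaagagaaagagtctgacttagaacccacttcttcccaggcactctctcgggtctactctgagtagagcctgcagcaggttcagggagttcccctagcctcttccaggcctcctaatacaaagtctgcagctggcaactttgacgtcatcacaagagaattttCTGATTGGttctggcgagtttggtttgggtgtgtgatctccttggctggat
H2-Eb1: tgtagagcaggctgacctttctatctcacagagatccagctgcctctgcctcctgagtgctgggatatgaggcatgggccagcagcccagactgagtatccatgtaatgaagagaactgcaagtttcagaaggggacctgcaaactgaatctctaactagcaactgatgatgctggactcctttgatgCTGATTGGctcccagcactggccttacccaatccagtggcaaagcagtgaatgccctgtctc
In Isg15 (chr4:156200819-156201068, minus strand) capitals mark 3 overlapping matches to the interferon-stimulated response element, taken as GAAA, any 2 bases and GAAA.
Isg15: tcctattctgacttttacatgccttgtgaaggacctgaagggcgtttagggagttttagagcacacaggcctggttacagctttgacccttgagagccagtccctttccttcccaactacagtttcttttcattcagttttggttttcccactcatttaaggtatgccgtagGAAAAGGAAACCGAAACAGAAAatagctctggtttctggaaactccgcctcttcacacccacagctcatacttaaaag
The Y box match began 51 bases before the start of H2-Aa and 62 bases before that of H2-Eb1. On either strand the Y box letters were in 3.83% of 32851 promoters of this length, which is 4.43% of 27025 genes. They were in 3 of the 10 genes of the MHC class II list that have an entry, H2-Aa, H2-Eb1 and H2-Oa. On either strand the response element was in 2.98% of all promoters, which is 3.46% of genes. Of the 15 genes that stood highest in members over other cells 13 have an entry. The element was in 5 of these 13, Ifit1, Ifit3, Isg15, Rsad2 and Slfn5.

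The 7 rule genes describe how the members were chosen and are given as levels only, in CPM, the UMIs of a gene in the summed cells scaled to 1000000 UMIs. Plac8, a small protein of myeloid cells, was the highest, at 4124 CPM in distal and 2346 CPM in niche members. Ly6c2, which encodes Ly6C, was at 1201 and 901 CPM, and Ccr2 at 970 and 594 CPM. These 3 genes had a UMI in at least 94.1% of the members of each library.

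The other 4 rule genes were sparser. In members chosen at full depth and then thinned to equal depth, each was found in fewer niche than distal members. F13a1, the A chain of coagulation factor XIII, had a UMI in 46.3% of distal and 9.73% of niche members, and Ifitm6, an interferon-induced membrane protein, in 75.7% and 27.4%. With each cell thinned to 2000 UMIs the shares were 31.1% and 6.36% for F13a1 and 50.4% and 14.5% for Ifitm6, over 135 distal and 110 niche members that were deep enough. B cells, which should lack these genes, gave background shares of 1.16% and 3.70% for F13a1 and 6.98% and 5.56% for Ifitm6 at median depths of 2725 and 2127 UMIs. Hp, haptoglobin, was in 77.9% and 80.5% of members, or 60.0% and 41.8% after thinning. Thbs1, thrombospondin 1, was in 47.1% and 30.1%, or 29.6% and 14.5%. All 7 rule genes had a lower CPM in niche than in distal members, and Ifitm6 and Hp were library-shifted. The rule used these genes at full depth, where a deeper niche cell could meet it at lower levels. Thinning afterwards does not undo that, so no difference between the libraries is read from these values.

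**Figure D1:**
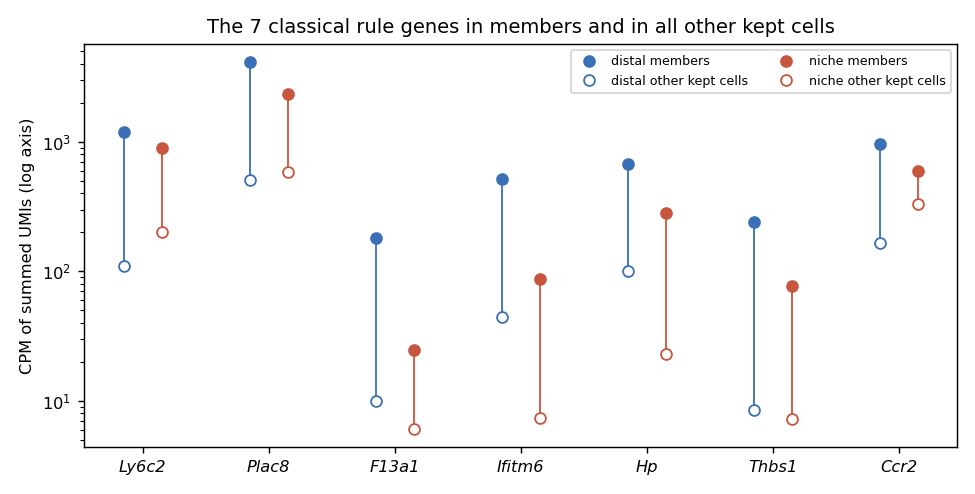
Level of the 7 rule genes in CPM of summed UMIs (log axis) in members (filled points) and all other kept cells (open points) of the distal (blue) and niche (red) library. Members lie above other cells for each gene, which the rule fixes, and the gap is smallest for Ccr2 in the niche library, at 594 against 330 CPM.

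Members were 3.84% of distal cells (Clopper-Pearson interval 3.23 to 4.53) and 3.67% of niche cells (3.03 to 4.39), a ratio of 0.955 (0.737 to 1.23). This value depended on depth and on the number of rule genes asked for. With all cells thinned to 2000 UMIs the niche share was 1.65% and the ratio 0.404, and asking for 5 rule genes gave 2.60% and 1.04%, a ratio of 0.400. Asking for only 3 gave 7.43% and 10.6%, a ratio of 1.43. Non-classical monocytes, which patrol the vessel wall, numbered 123 distal and 14 niche cells by their own genes, so classical cells were 52.5% (46.2 to 58.7) of both kinds together in the distal and 89.0% (82.2 to 93.8) in the niche library. The sort can set such shares, and its part was not tested.

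The members of the libraries differed in how far they met the rule. In the distal library 44 members had 4 rule genes, 32 had 5, 27 had 6 and 33 had all 7. In the niche library the numbers were 81, 19, 8 and 5, so 71.7% of niche and 32.4% of distal members sat at the lowest number allowed. Just outside, 127 distal and 215 niche cells had 3 of the genes and met every other condition. Of niche members 38 (33.6%) had no UMI of the 4 macrophage genes, against 108 (79.4%) distal members. A further 17 niche cells and 1 distal cell missed the rule by having 10 to 19 such UMIs. Niche members were also deeper, at a median of 8539 against 5010.5 UMIs. C1qa was in 30.1% of niche members and in 31.5% of niche B cells, which should lack it, or 7.27% and 7.14% after thinning. In the distal library it was in 3.68% of members and 1.55% of B cells. Ms4a7 was in 28.3% of niche members and 11.1% of niche B cells, or 10% and 0% after thinning. The thinned shares of both genes rest on 110 niche members and only 28 niche B cells. These B cells were under the same limit on macrophage genes.

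Genes outside the rule varied with the number of rule genes in both libraries. Lyz2 (lysozyme 2, chr10:117277331-117282321), the bactericidal enzyme of myeloid cells, was at 13301, 22937, 33909 and 32594 CPM in distal members with 4, 5, 6 and 7 rule genes and at 8507, 14440, 27464 and 27274 CPM in niche members. The calcium-binding proteins S100a4 and S100a6 together took 2265, 4291, 4666 and 5274 CPM in the distal and 752, 1227, 3993 and 4626 CPM in the niche library. Cells with 6 or 7 rule genes thus carried more RNA of these 3 genes than cells with 4.

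MHC class II ran the other way. H2-Aa, H2-Ab1 and H2-Eb1, which encode its chains, and Cd74, the chaperone that fills its groove, took 33340, 22405, 6654 and 3420 CPM in distal members with 4, 5, 6 and 7 rule genes and 39744, 42354, 9708 and 1412 CPM in niche members. The cells just outside, with 3 rule genes, were at 35663 and 40012 CPM. The 4 macrophage genes, whose level the rule caps, were at 138 CPM with 4 and 27.3 CPM with 7 rule genes in distal members, and at 223 and 90.1 CPM in niche members. Apoe, an apolipoprotein of macrophages, followed no such order, at 3225, 5038, 3222 and 2307 CPM in the distal and 2792, 2377, 7670 and 2703 CPM in the niche library.

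**Figure D2:**
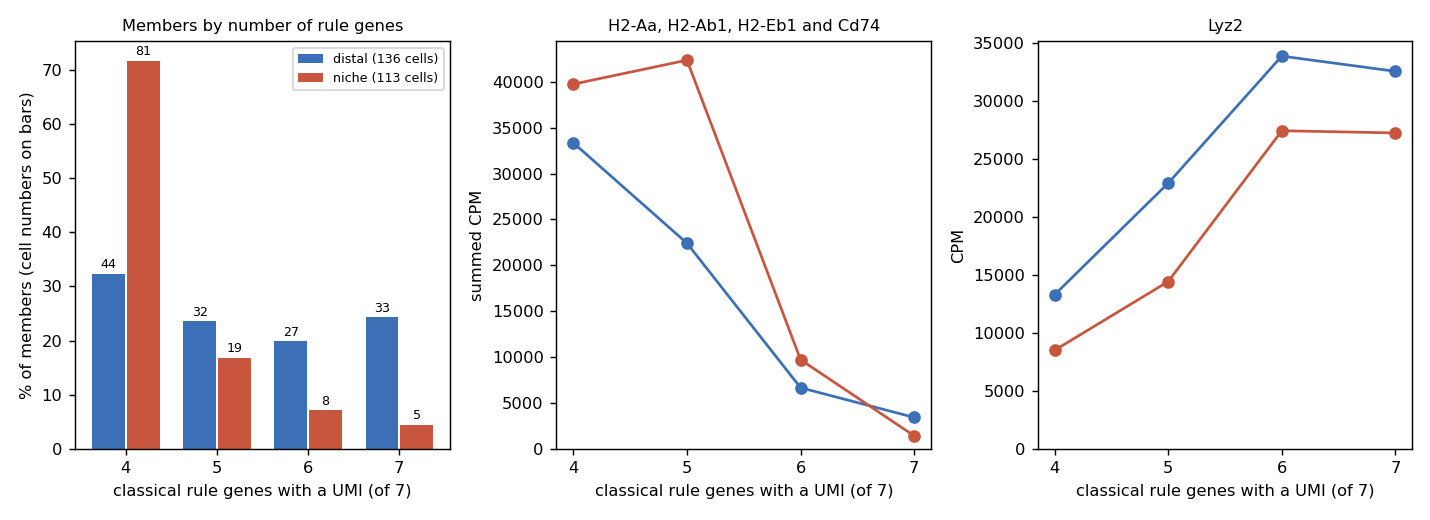
Left, percent of members with 4, 5, 6 and 7 rule genes in the distal (blue) and niche (red) library, with cell numbers on the bars. Middle and right, summed CPM of H2-Aa, H2-Ab1, H2-Eb1 and Cd74 and CPM of Lyz2 by number of rule genes. Niche members lie mostly at 4 genes (81 of 113 cells), MHC class II is low at 6 and 7 genes in both libraries, and Lyz2 is high there.

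The label was checked against markers of the cells the sort could hold. The 6 markers of classical monocytes are all rule genes, so they check nothing. At least 3 of 10 non-classical monocyte markers were found in 63 distal (46.3%) and 40 niche (35.4%) members, at a summed level of 879 and 458 CPM, and 6 of these 10 are the genes the rule limits to fewer than 3. At least 3 of 10 neutrophil markers were found in 22 distal (16.2%) and 8 niche (7.08%) members, at 1507 and 1058 CPM. S100a8 (330 and 299 CPM) and S100a9 (931 and 636 CPM), which the rule caps, made up most of these sums. NK cell markers had no UMI in distal members for any of the 7 genes, and the 6 basophil and mast cell markers were at 0 in both libraries. Platelet RNA was nearly absent, with 2 and 3 UMIs, all of Pf4. At least 3 of 10 dendritic cell markers were found in 2 distal and 2 niche members, and Zbtb46, which marks conventional dendritic cells, was at 0 in both. Few members thus carried several dendritic cell markers.

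Macrophage markers went partly against the label. At least 3 of 12 interstitial macrophage markers were found in 42 distal (30.9%) and 85 niche (75.2%) members. Their summed level was close, at 4140 and 4217 CPM, with Folr2 at 0 in distal members. Most of each sum was Apoe, at 3393 CPM in distal and 2949 CPM in niche members. The other markers together were thus lower in distal than in niche members. C1qa, C1qb, C1qc and Ms4a7 are among the 12 and are capped by the rule. Counts of markers found rise with depth, niche members were deeper, and the cells were not thinned here. The part of depth and of free RNA in these counts was not tested. Among members with 4 rule genes at least 3 of the 12 were found in 20 of 44 distal and 65 of 81 niche cells. With 6 or 7 rule genes they were found in 14 of 60 and 6 of 13. Members with 6 or 7 rule genes had the highest Lyz2 and S100a6 and the lowest MHC class II in both libraries. Their summed interstitial macrophage markers were at 3336 CPM in distal and 6627 CPM in niche members, against 4095 and 4136 CPM with 4. Of these sums Apoe made up 2722 and 5626 CPM with 6 or 7, and 3225 and 2792 CPM with 4. The other markers together were lower with 6 or 7 than with 4 in both libraries. At least 3 neutrophil markers were found in 13 of 60 distal and 1 of 13 niche members with 6 or 7. Members with 4 rule genes carried monocyte genes together with MHC class II, at 33340 CPM in distal and 39744 CPM in niche members. Macrophages were at 51458 and 39901 CPM. Members are named below by their rule gene number.

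Compared with all other kept cells of the same library, members stood out in a short set of genes. Ranked by the smaller of the ratios in the libraries, the first 15 genes outside the rule with at least 100 CPM in both were Rsad2, Ly6c1, S100a4, Clec4e, Ifit2, Fn1, Ifit3, Slfn1, Ifit1, Isg15, Ms4a4c, Gm15056, S100a6, Slfn5 and Adgre5. Of these Rsad2, S100a4, Ifit2 and Gm15056 were library-shifted. Other cell types carried some of the same genes at a higher level. Adgre5, the adhesion receptor CD97, was at 255 and 122 CPM in members of the distal and niche library and at 582 and 296 CPM in non-classical monocytes. Clec4e was at 170 and 109 CPM in members and at 731 and 304 CPM in neutrophils. This ranking describes cells chosen by their own RNA and was not tested.

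Of the 15 genes 5 are on the type I interferon list (Rsad2, Ifit1, Ifit2, Ifit3 and Isg15). Isg15, a ubiquitin-like protein, was 3.00-fold higher in members than in other distal cells and 2.42-fold higher in the niche library, at 1091 and 1529 CPM. Ifit3, which binds foreign RNA in a complex with Ifit1, was 2.60- and 3.40-fold higher, at 104 and 184 CPM. Ifit1 was 2.54- and 2.88-fold higher, and Rsad2, the antiviral enzyme viperin, 4.06- and 4.78-fold higher. The Schlafen genes Slfn1 and Slfn5, also known to respond to interferon, were 3.78- and 2.59-fold and 4.77- and 2.21-fold higher. These genes were therefore higher in members than in the sum of all other cells of both libraries. The whole type I interferon list was at 5255 and 6320 CPM in members, 1587 and 6056 CPM in non-classical monocytes and 4371 and 4262 CPM in neutrophils.

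Of the myeloid genes Ly6c1, the neighbour and close copy of Ly6c2, was 7.04-fold higher in distal and 4.01-fold higher in niche members than in other cells. Reads of this pair may be split between the copies. Clec4e, the receptor Mincle for mycobacterial glycolipid, was 2.76- and 3.37-fold higher, and Fn1, fibronectin, 3.73- and 2.69-fold higher. Ms4a4c, a membrane protein of Ly6C-high monocytes, was 6.44- and 2.33-fold higher, at 1107 and 1086 CPM, and so stood at the same level in members of both libraries.

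Niche and distal members were then compared gene by gene over 6657 genes with at least 20 UMIs. A gene was called when its whole interval lay beyond 1.5-fold. By this rule 194 genes (2.91%) were higher and 252 (3.79%) lower in niche members, and the median log2 ratio of all genes was -0.03. Without the 513 library-shifted genes, 86 of 6144 (1.4%) were higher and 202 (3.29%) lower. Niche macrophages (2190 cells, chosen by the C1q genes and Ms4a7) lay on the same side of distal members for 85 of those 86 genes and 199 of those 202. Over all 6144 genes niche macrophages lay above distal members for 45.4% and below for 54.6%. The called genes were picked by the same distal levels, which partly fixes the side on which other niche cells lie. No likeness to macrophages is read from these counts. Macrophages themselves differed between the libraries with the same sign as members for 71 of the 86 genes and 187 of the 202. Over all genes measured in macrophages the sign was the same for 4055 of 6143. How much of these differences was shared by the whole libraries, and how much of it came from macrophage RNA, free or in shared droplets, was not tested.

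The comparison was repeated within members of like rule gene number, since that number differed between the libraries. Between the 44 distal and 81 niche members with 4 rule genes, 97 of 5233 genes (1.85%) were higher and 116 (2.22%) lower in the niche library. Between the 32 and 19 members with 5, 79 of 2329 (3.39%) were higher and 63 (2.71%) lower. Between the 60 and 13 members with 6 or 7, 44 of 2848 (1.54%) were higher and 25 (0.878%) lower. Depth was not matched within these sets. Median UMIs were 6338.5 in distal and 8831 in niche members with 4 rule genes, and 4536 and 8286 with 5. They were 5001 and 5122.5 with 6 and 5107 and 5968 with 7. A deeper cell can reach the same rule gene number at lower levels of these genes, and the part of depth was not tested. Values for these 3 sets follow the pooled ones below, in this order.

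Other genes of classical monocytes were lower in niche members. Of 21 tested genes 0 were called higher and 8 lower, among them Mgst1, Smpdl3a, Fn1, Cd177, Lyz2, Wfdc17 and the library-shifted Ms4a8a, with a median log2 ratio of -0.64. The list's sum had a log2 ratio of -0.78 in members, -0.74 in neutrophils, -0.52 in macrophages and -0.18 in non-classical monocytes. It was at -1.24 in endothelial cells, 0.79 in T cells and 0.12 in B cells, so members were not alone in this direction. Lyz2 was at 23650 CPM in distal and 10993 CPM in niche members, a log2 ratio of -1.11 (-1.14 to -1.07). Fn1 was at 307 and 108 CPM, but 41.8% of its niche UMIs came from 1 cell. Mgst1, a microsomal glutathione transferase, was at 399 and 136 CPM, and Cd177, a surface protein of neutrophils and some monocytes, at 63.7 and 14.8 CPM.

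Much of that difference went with the rule gene number. The list's median was -0.29 at 4 and -0.37 at 5 rule genes, with 3 of 19 and 3 of 18 genes called lower. At 6 or 7 it was -0.01 with 0 of 21 called. Lyz2 had log2 ratios of -0.64, -0.67 and -0.28 in these 3 sets, and Mgst1 -0.70, -1.99 and 0.15. Fn1 was lower in niche members at 4 rule genes, at -1.87 (-2.63 to -1.14), and not at 6 or 7, at 0.67 (0.24 to 1.06). It had 28, 12 and 70 niche UMIs in these sets, so the niche cell named above for Fn1 had 6 or 7 rule genes. The value of Fn1 at 6 or 7 thus rests largely on that cell. Ms4a4c stood at -0.07, 0.10 and -0.04.

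S100a6 and its partner Anxa2, a phospholipid-binding protein that also binds plasmin, were both lower in niche members. S100a6 was at 2810 and 861 CPM, a log2 ratio of -1.71 (-1.82 to -1.59), and Anxa2 at 714 and 250 CPM, a log2 ratio of -1.51 (-1.73 to -1.30). By rule gene number the ratios were -1.45, -1.74 and -0.34 for S100a6 and -1.28, -1.77 and -0.18 for Anxa2. Anxa2 belongs to the list of coagulation, fibrinolysis and matrix genes, of which 2 of 14 were higher (Mmp14 and Tgfbi, both library-shifted) and 3 lower (Anxa2, Fn1 and Mmp8), with a median of -0.61. That median was -0.09, -0.40 and 0.24 by rule gene number, over 11, 8 and 7 tested genes, so its sign turned at 6 or 7. Fn1, whose value there rests largely on a single niche cell, is among these 7 genes.

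Receptors for adhesion and homing split. Of 24 tested, 5 were lower, among them Itgb7, Cd44, Itga4 and Selplg, and 2 higher, among them Itgax, with a median of -0.27. Itgb7, an integrin chain that pairs with Itga4, was at 189 CPM in distal and 64.1 CPM in niche members, and Selplg, the ligand of P-selectin, at 227 and 119 CPM. Itgax, the integrin CD11c of dendritic cells and tissue macrophages, was at 38.7 and 111 CPM, a log2 ratio of 1.51 (0.94 to 2.15), with a UMI in 17 of 136 distal and 56 of 113 niche cells. The list's median was -0.32, 0.03 and 0.16 at 4, 5 and 6 or 7 rule genes, and no gene of it was called in any of the 3 sets. Itgb7 was at 104 and 52.2 CPM at 4 rule genes, with an interval of the log2 ratio of -1.71 to -0.27. Its ratios were -1.27 (-2.36 to -0.33) at 5 and -0.77 (-1.83 to 0.06) at 6 or 7. Between the 92 distal and 32 niche members with 5 or more rule genes Itgb7 was called lower, at -1.22 (-1.93 to -0.62). It was the only gene of the list called there.

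Among myeloid transcription factors 0 of 23 were higher and 5 lower in niche members, with a median of -0.66. Klf2, a factor of quiescent and circulating leukocytes, was at 589 and 178 CPM, a log2 ratio of -1.72 (-1.98 to -1.47). Nr4a1, the factor on which non-classical monocytes depend and also an immediate early gene, was at 409 and 137 CPM, a ratio of -1.58 (-1.88 to -1.29). Mef2c was at 140 and 41.4 CPM, Bhlhe40 at 69.9 and 22.7 CPM and Cebpd at 176 and 69.0 CPM. By rule gene number the list's median was -0.33, -0.63 and 0.08, with 5 of 22, 2 of 18 and 0 of 20 genes called lower. Nr4a1 was at -1.72, -1.08 and -0.21 and Mef2c at -1.71, -2.52 and 0.07, and the intervals of both spanned 0 at 6 or 7. The interval of Klf2 lay below 0 in each set, at -1.23, -1.37 and -0.73 (-1.26 to -0.26). Klf2 was also lower in niche macrophages (log2 ratio -1.61). The list's sum was at -0.43 in members, -0.42 in macrophages, -0.72 in neutrophils and -0.91 in non-classical monocytes. T cells (0.66), endothelial cells (0.36) and B cells (0.05) lay above 0.

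Genes induced by tissue dissociation moved in the same direction as Nr4a1, which is one of them. Of 21 tested, 0 were higher and 4 lower (Btg2, Nr4a1, Ier2 and Jund), with a median of -0.42, and their summed level was 13146 CPM in distal and 9906 CPM in niche members. The list's median was -0.26, -0.65 and -0.08 by rule gene number. In macrophages the same list was at 11489 and 7886 CPM. Whether handling of the tissue moved these genes was not tested.

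MHC class II genes were higher in niche members. Of 12 tested genes of antigen presentation 6 were called higher (H2-Ab1, H2-Eb1, Cd74, H2-Aa and the library-shifted Ciita and H2-DMb1) and 0 lower, with a median of 0.83. H2-Ab1 (chr17:34257689-34269419) was at 3191 CPM in distal and 7069 CPM in niche members, a log2 ratio of 1.15 (1.08 to 1.21). H2-Aa, whose promoter is shown above, was at 3577 and 6585 CPM, and H2-Eb1 at 2851 and 5906 CPM. Cd74 was at 9512 and 17950 CPM, a ratio of 0.92 (0.88 to 0.95). Ciita, the coactivator of these genes, had 24 distal and 103 niche UMIs.

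In single cells the 4 MHC class II genes took 0% to 9.66% of a distal member's UMIs (median 0.314%), and 30 distal members had none. In niche members they took 0.0177% to 8.11% (median 4.04%), and none was at 0. Lyz2 took a median of 2.49% of UMIs in distal and 0.738% in niche members. Distal members thus lay in both ranges, many at low MHC class II and high Lyz2, whereas few niche members did. Other cells also had more of these 4 genes in the niche library. T cells, which in mice make no MHC class II, were at 2808 and 20902 CPM, a log2 ratio of 2.90. Neutrophils were at 10401 and 21268 CPM (1.03), non-classical monocytes at 10328 and 29686 CPM (1.52) and B cells, which make MHC class II, at 21807 and 28567 CPM (0.39). Macrophages (51458 and 39901 CPM) and endothelial cells (6513 and 2258 CPM) went the other way. The difference in T cells was thus about as large in CPM as that in members, at 19131 and 37510 CPM, and the part of free RNA or shared droplets in the members' difference was not tested.

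**Figure D3:**
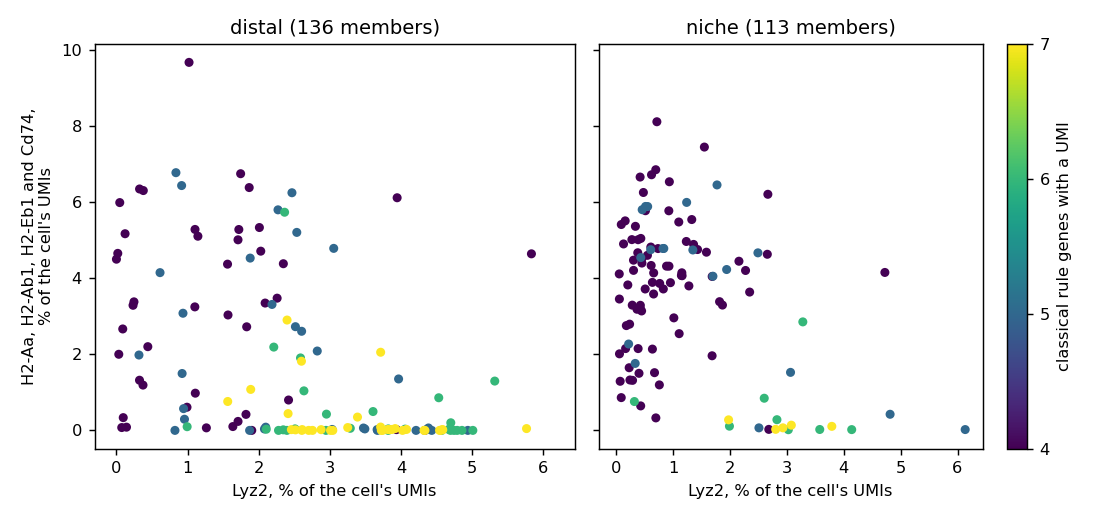
Each point is 1 member of the distal (left, 136 cells) or niche (right, 113 cells) library, with the percent of its UMIs in Lyz2 on the x axis, the percent in H2-Aa, H2-Ab1, H2-Eb1 and Cd74 on the y axis, and the number of rule genes as colour. Cells with 6 or 7 rule genes (green and yellow) lie mostly at the bottom in both panels, and most niche members are cells with 4 rule genes at a median of 4.04% MHC class II.

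The size of the MHC class II difference depended on the rule gene number. Summed over the 4 genes, the log2 ratio was 0.25 at 4 rule genes (33340 and 39744 CPM), 0.92 at 5 (22405 and 42354 CPM) and 0.37 at 6 or 7 (4888 and 6293 CPM). The median of the list was 0.30, 0.65 and 0.26 in these sets, with 1 of 11, 4 of 11 and 1 of 9 genes called higher. H2-Ab1 was at 0.40 (0.32 to 0.48), 1.06 (0.92 to 1.20) and 0.68 (0.30 to 1.03). H2-Eb1 was at 0.30, 0.98 and -0.13 (-0.66 to 0.35).

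Interferon gamma genes were higher in niche members, but mostly genes that were shifted between the libraries in other cells too. Of 23 tested, 10 were called higher and 0 lower, with a median of 0.81, and 8 of these 10 were library-shifted, while Gbp4 was not. Gbp4, a guanylate-binding protein, was at 152 and 410 CPM, a log2 ratio of 1.42 (1.13 to 1.73). Cxcl9, a chemokine for T cells that interferon gamma induces, was at 1669 and 5462 CPM and at 0 in 97 of 136 distal and 17 of 113 niche cells. In B cells Cxcl9 was at 300 and 1998 CPM, so it differed there as well. The list's summed level had log2 ratios of 0.92 in members, 0.78 in macrophages, 1.25 in B cells and 2.04 in non-classical monocytes.

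By rule gene number the median of these genes was 0.35, 0.93 and 0.59, with 3 of 22, 6 of 21 and 5 of 17 called higher and, at 6 or 7, 1 lower (Cxcl10). Gbp4 was at 0.60, 1.51 and 2.46 (1.43 to 3.54), the last from 15 distal and 20 niche UMIs. Cxcl9 was at 0.67 and 2.75 but at -0.13 (-0.91 to 0.54) with 6 or 7. The interval of Gbp4 lay above 0 in all 3 sets, and that of Cxcl9 spanned 0 in the last.

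Type I interferon genes, among which are 5 of the genes that stood highest in members over other cells, were close in niche and distal members. Of 23 tested 1 was higher and 0 lower, with a median of 0.05. Isg15 was at 1091 and 1529 CPM, a log2 ratio of 0.49 (0.37 to 0.61), and Irf7, the regulator that amplifies the response, at 710 and 709.5 CPM. The list took 0% to 4.95% of a distal member's UMIs (median 0.351%) and 0.0397% to 3.94% of a niche member's (median 0.400%), so members of each library spread widely and overlapped. By rule gene number the median was -0.02, 0.59 and -0.02, with 5 of 18 genes called higher at 5 and 1 of 21 lower at 6 or 7 (Rsad2). Isg15 was at -0.02, 1.35 and 0.85.

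**Figure D4:**
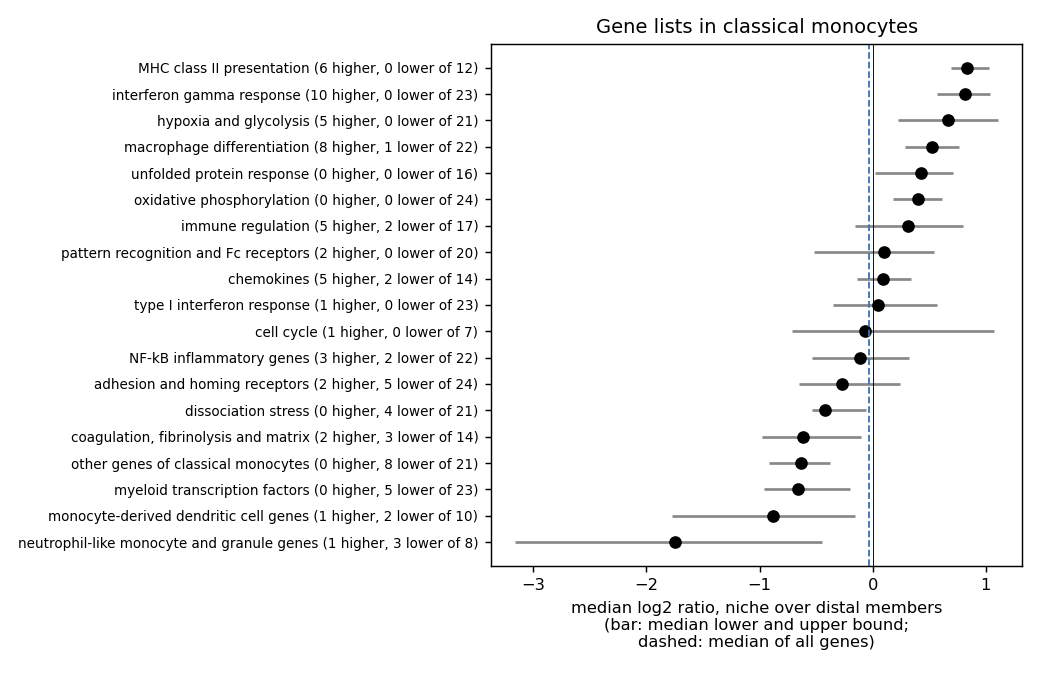
Median log2 ratio of niche over distal members for each gene list (points), with the medians of the lower and upper interval bounds (bars), counts of called genes in the labels, and the median of all genes (dashed line, -0.03). MHC class II (0.83), interferon gamma (0.81) and glycolysis genes (0.67) lie highest, and granule genes (-1.74) lowest.

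Chemokine genes moved both ways. Of 14 tested, 5 were higher in niche members (Ccl8, Ccl5, Ccl12, Cxcl16 and Cxcl9, all library-shifted) and 2 lower (Ccl9 and the library-shifted Ccl6), with a median of 0.09 and a ratio of 0.81 for the sum. Without library-shifted genes 6 were tested, none lay above 0, the median was -0.52 and the sum was at -0.53. Ccl5, which draws T cells and monocytes, was at 297 and 2125 CPM, a log2 ratio of 2.84 (2.64 to 3.04), and at 0 in 113 of 136 distal and 26 of 113 niche cells. Its ratio was 0.41 in macrophages, and B cells had 297 and 712 CPM. Cxcl16, the ligand of CXCR6, was at 170 and 723 CPM. Ccl9, which attracts cells through CCR1, was at 383 and 76.9 CPM, a ratio of -2.31 (-2.70 to -1.96).

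These chemokines were also compared by rule gene number. Ccl5 was at 1.91 (1.70 to 2.14) at 4 rule genes, 3.08 (2.62 to 3.60) at 5 and 3.13 (2.19 to 4.18) at 6 or 7. Cxcl16 was at 1.18, 2.67 and 1.96, and Ccl6 at -1.14, -0.99 and -0.90. Ccl9 was at -2.50 and -2.30, and at -0.46 (-1.11 to 0.11) with 6 or 7. Ccl5, Cxcl16 and Ccl6 thus lay on the same side of 0 in all 3 sets.

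Genes of macrophage differentiation were higher in niche members in part. Of 22 tested, 8 were higher and 1 lower (Mrc1, library-shifted), with a median of 0.53. Of the 8, Mertk, Fabp5 and Cd63 were not library-shifted, and Cd81, Cd72, Aif1, Ctsb and Fcgr1 were. Mertk, a receptor for dying cells, had 2 UMIs in distal and 35 UMIs in niche members, a log2 ratio of 3.49 (1.83 to 6.89), spread over 25 niche cells. Fabp5, a fatty acid-binding protein, was at 76.2 and 321 CPM and Cd63, a lysosomal membrane protein, at 36.2 and 122 CPM. Fabp5 was at 2.67 (1.99 to 3.54) at 4 and 1.30 (0.58 to 2.10) at 5 rule genes, and at 6 or 7 it had 23 distal and 1 niche UMI. The list's sum had a ratio of 0.36 (0.32 to 0.39), and without library-shifted genes of -0.07 (-0.13 to -0.02), so its direction rested on library-shifted genes. The same sum was at 1.17 in neutrophils, 0.95 in T cells and 0.49 in B cells.

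Glycolysis genes were higher in niche members. Of 21 tested genes of hypoxia and glycolysis 5 were higher (Mif, Tpi1, Hif1a, Gapdh and Aldoa) and 0 lower, with a median of 0.67, and of these Hif1a was library-shifted. Gapdh was at 1023 and 2033 CPM, a log2 ratio of 0.99 (0.87 to 1.11), Tpi1, triosephosphate isomerase, at 151 and 364 CPM, and Mif, a cytokine that also has tautomerase activity, at 177 and 495 CPM. The list's median was 0.55, 0.97 and 0.01 by rule gene number, with 4, 3 and 1 genes called higher. Gapdh was at 0.88 (0.71 to 1.05) at 4 rule genes, at 1028 and 2055 CPM at 5, and at 0.01 (-0.39 to 0.37) at 6 or 7. Macrophages showed the same direction, with a median of 0.52.

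Other lists moved less. All 24 genes of oxidative phosphorylation had ratios above 0 (median 0.40) and 0 were called. Their median was 0.29 at 4 and 0.45 at 5 rule genes and turned to -0.27 at 6 or 7, where the sum was at -0.22 (-0.35 to -0.10). Of 16 genes of the unfolded protein response 12 were above 0 (median 0.42) and 0 were called, and the median was 0.29, 0.53 and 0.05 by rule gene number. Of 22 NF-kB genes 3 were higher (Il1a and the library-shifted Il1rn and Sod2) and 2 lower (Nfkbiz and Nlrp3, the inflammasome sensor), with a median of -0.11, and Il1b, the cytokine with the highest level among them, stood at 3969 and 3579 CPM. The NF-kB median was -0.30, -0.14 and 0.28 by rule gene number. Of 20 pattern recognition and Fc receptors 2 were higher (Fcgr1 and Fcgr4, both library-shifted) and 0 lower, with a median of 0.10, or -0.11, 0.26 and 0.40 by rule gene number. Of 7 tested cell cycle genes 1 was higher (Pcna, library-shifted) and 0 lower, with a median of -0.07, and only 7 of 23 reached 20 UMIs.

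Genes that restrain immune cells were uneven and often rested on few cells. Of 17 tested, 5 were higher (Arg1, Pdcd1lg2 and the library-shifted Cd274, Il1rn and Lilrb4a) and 2 lower (Cd33 and Trem1), with a median of 0.32. Arg1, the arginase of suppressive myeloid cells, had 68 niche UMIs in 4 cells, of which 88.2% were in 1 cell, and 1 distal UMI. Pdcd1lg2, which encodes the checkpoint ligand PD-L2, had 5 distal UMIs in 4 cells and 29 niche UMIs in 15 cells.

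Granule and neutrophil-like genes gave a median of -1.74 over 8 tested, with 1 higher (Saa3) and 3 lower (Cd177 and the library-shifted Chil3 and Mmp8). Their summed level had the other sign, at 0.07, and with cells thinned to 2000 UMIs the median was 0.32 and Cd177 stood at 0.18. Saa3, an acute phase protein, was at 51.2 and 387 CPM, but 66.2% of its niche UMIs came from 1 cell. Of 10 genes of monocyte-derived dendritic cells 1 was higher (Itgax) and 2 lower (Cd209a and the library-shifted Mgl2), with a median of -0.88. Cd209a, the lectin DC-SIGN of those cells, had 61 UMIs in 12 distal members and 0 in niche members, which makes it at least 25.8-fold lower against a floor of 3 UMIs in all niche members.

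The largest differences outside the lists were taken among genes with at least 30 UMIs that were not library-shifted. Highest in niche members were Fam89b, Arg1, Spata7, Prg4, Mertk, Procr, Vcam1, Tlr12, AA467197, Rgs1, Zmynd15 and Saa3. Fam89b had 0 UMIs in distal and 72 UMIs in 52 niche members, at least 18.9-fold higher, but it differed in the same way in other cells, at 0.24 and 89.8 CPM in macrophages, 0 and 52.2 CPM in B cells, 0.43 and 46.4 CPM in T cells, 0 and 57.0 CPM in neutrophils and 0 and 73.2 CPM in endothelial cells. It was not counted as library-shifted because that needed 20 UMIs in at least 2 of those 4 unrelated cell types. Spata7 also differed in other cells, at 6.86 and 70.9 CPM in macrophages and 4.79 and 127 CPM in B cells. Prg4 had all its 33 niche UMIs in 1 cell. Zmynd15 overlaps the position of Cxcl16 on chromosome 11, so its reads are uncertain.

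Better supported were Rgs1, Vcam1 and Procr. Rgs1, a brake on chemokine receptor signalling, was at 48.7 CPM in distal and 382 CPM in niche members, a log2 ratio of 2.96 (2.50 to 3.49), with a UMI in 13 of 136 and 70 of 113 cells. It stood at 565 CPM in macrophages of both libraries. At 4 rule genes its ratio was 1.85 (1.37 to 2.42), at 5 it had 3 distal and 39 niche UMIs and at 6 or 7 it had 1 and 20. Vcam1, an adhesion molecule for leukocytes, was at 6.24 and 68.0 CPM in 4 and 28 cells, and Procr, the receptor of protein C, at 3.75 and 45.3 CPM in 3 and 22 cells.

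Lowest in niche members were Retnla, Cd209a, Car4, AY761185, Ebf1, Cd2, Ceacam1, Apoc1, Arhgef3, Rgs18, Ptprcap and Pi16. Several came from few distal cells or from genes of other cell types. Retnla had 221 UMIs, 99.5% of them in 1 distal member, and AY761185 had all of its 40 UMIs in 1. Car4, with 48 UMIs in 5 members, is on the alveolar macrophage list, whose summed level was 644 CPM in distal and 50.3 CPM in niche members. Ebf1 and Cd2 are B and T cell genes, and the B cell list was at 433 and 67.0 CPM and the T cell list at 191 and 32.5 CPM. Their part in the other differences was not tested, and without the 18 distal and 5 niche members that had at least 2 T or B cell genes 178 genes were higher and 230 lower.

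Ceacam1, Pi16 and Rgs18 were spread over more cells. Ceacam1, a cell adhesion molecule, was at 47.4 CPM in 27 distal members and 5.91 CPM in 6 niche members, a log2 ratio of -2.91 (-4.54 to -1.75). Pi16, a secreted peptidase inhibitor, was at 41.2 CPM in 28 and 6.90 CPM in 5 cells, and Rgs18, which like Rgs1 turns off G protein signals, at 35.0 CPM in 21 and 4.93 CPM in 5 cells. Rgs1 and Rgs18 thus differed in opposite directions between the libraries.

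**Figure D5:**
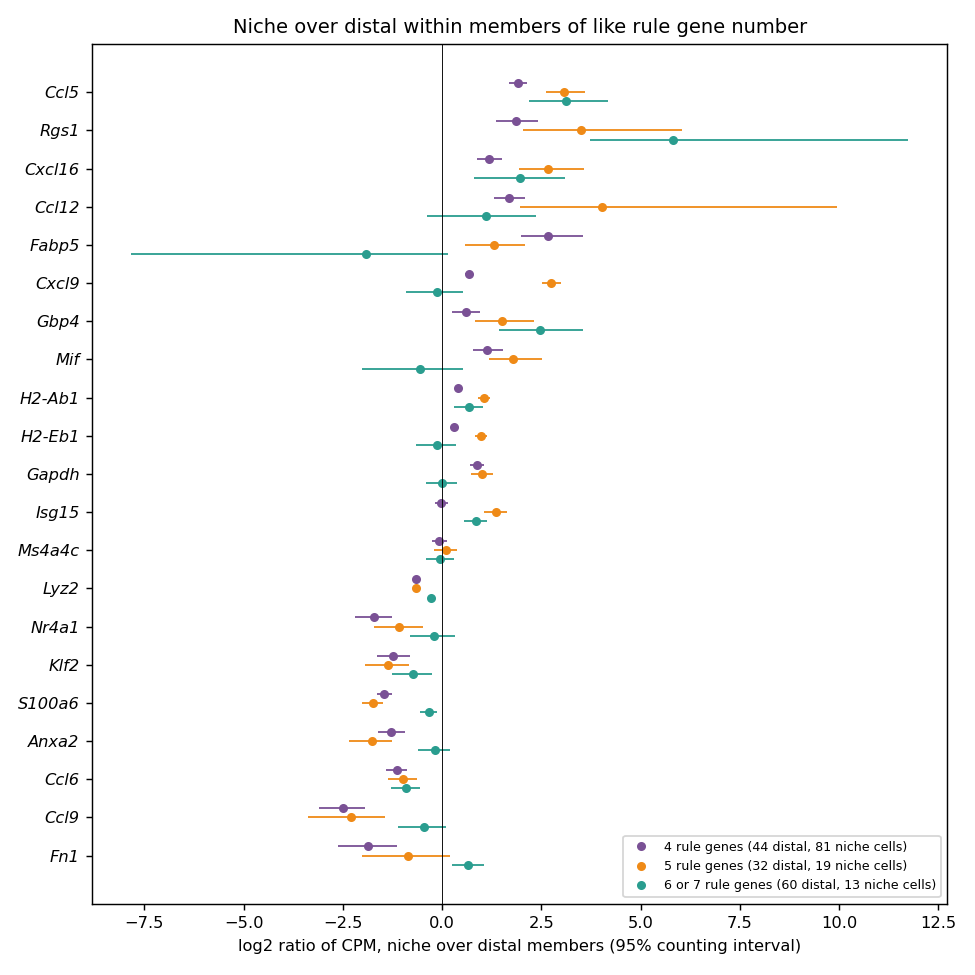
Log2 ratio of CPM in niche over distal members with 95% counting intervals for named genes, among members with 4 rule genes (purple, 44 distal and 81 niche cells), with 5 (orange, 32 and 19 cells) and with 6 or 7 (green, 60 and 13 cells). The intervals of Ccl5, Rgs1, Cxcl16, Gbp4 and H2-Ab1 lie above 0 and those of Klf2, S100a6, Lyz2 and Ccl6 below 0 in all 3 sets, whereas those of Cxcl9, Gapdh, Nr4a1, Anxa2 and Ccl9 reach 0 at 6 or 7 rule genes.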

How the data were processed

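Raw UMI counts were deposited by the authors as 1 matrix for each library. Per the file headers the distal matrix came from software version 3.0.2 and the niche matrix from cellranger 6.0.0. Tools named without a role in the submitters' processing notes are Bowtie2, RSEM, Seurat 4.1.1 and Cell Ranger 3.02, and the builds named are GRCm38 and mm10. The gene lists had 30149 and 32285 rows. The 29413 identifiers held by both entered comparisons, and 442 of them share exon bases with a gene of only 1 list. Gene positions are from GENCODE on GRCm38. How the submitters treated doublets is not stated, and no doublet caller was run here. Alternatives left out the 5% of members with most UMIs and members with T or B cell genes.

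Filtering removed 405 distal and 161 niche barcodes. UMIs were summed over members and divided by their total. The log2 ratio of niche over distal had 0.5 UMI added to each sum and an exact conditional binomial interval, and shares have Clopper-Pearson intervals, all at 95%. With 1 library in each group and cells that are not replicates, no p-value could be given. Genes needed 20 UMIs over both libraries, and genes of the rule were not counted. Library-shifted genes are defined in the results, where a shift needed at least 2 of the 4 cell types with 20 UMIs of the gene. T, B and endothelial cells had UMIs in at least 3 genes of their markers. Macrophages had 10 or more UMIs of the C1q genes and Ms4a7 and less than 2% of UMIs in S100a8 and S100a9. Thinning drew 2000 UMIs from each cell.

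Named genes were the rule genes and markers, the 12 highest and 12 lowest called ratios with at least 30 UMIs that were not library-shifted, the 15 genes highest in members over other cells, and the called members of each list, or its leading genes by CPM where none was called. Some values were added after they had been seen, for genes that differ by rule gene number. A few called genes are not reported here. The members, lists and markers were chosen with earlier results of these data known. The splits by rule gene number were chosen after seeing these values. The ratio step was tested on simulated counts. Scripts ran in Python 3.11.15 with scipy 1.17.1, numpy 2.4.6, matplotlib 3.10.9 and pandas 2.3.3.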

Additional observations from a re-analysis of the deposited data

Results flagged for a closer look

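Some results stood out because members and macrophages, chosen by the C1q genes and Ms4a7, differed between the libraries in opposite directions. Each group was 1 library, and this difference between the cell types was not tested.

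MHC class II was higher in niche than in distal members and lower in niche than in distal macrophages. The 4 genes H2-Aa, H2-Ab1, H2-Eb1 and Cd74 had a log2 ratio of 0.97 in members (19131 and 37510 CPM) and -0.37 in macrophages (51458 and 39901 CPM). In single genes the ratios in members and macrophages were 0.88 and -0.40 for H2-Aa, 1.15 and -0.22 for H2-Ab1, 1.05 and -0.37 for H2-Eb1, and 0.92 and -0.40 for Cd74. The whole list of antigen presentation was at 0.91 in members and -0.32 in macrophages. The 4 genes were also higher in the niche library in T cells (2.90), non-classical monocytes (1.52), neutrophils (1.03) and B cells (0.39), and lower in endothelial cells (-1.53), so the direction in members was shared by 4 of the 6 other cell types. Niche members and niche macrophages lay closer to each other, at 43997 and 46107 CPM of the list, than the distal ones, at 23343 and 57372 CPM.

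The list of macrophage differentiation was summed to a ratio of 0.36 in members and -0.32 in macrophages. Without library-shifted genes the ratio in members was -0.07 (-0.13 to -0.02), and the list was also higher in niche neutrophils (1.17), T cells (0.95) and B cells (0.49). The cell cycle list was summed to -0.25 in members and 0.03 in macrophages. Among single genes Zmynd15 was at 2.92 in members and -0.36 in macrophages, and its position overlaps Cxcl16. Saa3 was at 2.90 and -3.12, with 66.2% of its niche UMIs in 1 member. Prg4 (4.14 and -5.07) and Fscn1 (5.44 and -0.70) had all their niche UMIs, 33 and 27, in 1 member, and Fscn1 had 0 in distal members, at least 7.10-fold fewer against a floor of 3 UMIs.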

How the results depend on the processing

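No paired analysis was possible because each group is 1 library. Alternatives for filters, scaling and membership were tried, and those on exactly 4 rule genes, on no macrophage UMI and on thinning with fewer than 2 macrophage UMIs were chosen after seeing the data. With 5 rule genes asked for, shares were 2.60% and 1.04% (ratio 0.400), 124 genes were higher and 74 lower, and the medians of other monocyte genes and MHC class II were -0.31 and 1.16. With 3, shares were 7.43% and 10.6% (1.43), 457 genes were lower and MHC class II was at 0.46. With exactly 4, 97 genes were higher and 116 lower, and other monocyte genes, interferon gamma and MHC class II were at -0.29, 0.35 and 0.30. Thinning to 2000 UMIs gave a niche share of 1.65% (ratio 0.404) with 42 genes higher and 16 lower, and turned the granule list to 0.32 and Cd177 to 0.18. With fewer than 2 macrophage UMIs as well, the share was 1.31% (0.335), 34 genes were higher and 14 lower, other monocyte genes were at -0.30, and the granule list (0.79), Cd177 (0.27), Itgb7 (0.10) and Adgre5 (0.030) turned. Thinned members have fewer UMIs, and fewer genes could be tested. Without any macrophage UMI, 113 genes were lower, other monocyte genes were at -0.30 and the coagulation list turned to 0.081. At most 5% mitochondrial UMIs gave a distal share of 4.62%, a minimum of 50 UMIs gave 164 genes lower, and leaving out library-shifted genes gave 86 higher. Where not stated, the cause was not tested. Of the named called genes 53 of 97 were still called at exactly 4 rule genes, 61 of 98 at 5 or more and 72 of 101 without macrophage UMIs, and none of these turned. Thinned, 24 of 67 were still called and 1 turned, and with fewer than 2 macrophage UMIs as well 17 of 66 and 3. The type I interferon median lay on either side of 0 over the alternatives. At 2000 UMIs a cell 120 distal and 44 niche cells were members, and values at 6 or 7 rule genes rest on 13 niche cells.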
